A study of Mus musculus with 16 samples.

Results

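The leukocyte integrins are the 10 genes with the symbols Itgam, Itgal, Itgax, Itgb2, Itgb2l, Itga4, Itga5, Itga6, Itgb1 and Itgb7, found by symbol among the 54347 genes of the count table. Their RNA was measured in sorted bone marrow cells of C57BL/6 mice, littermates of 8 to 12 weeks of age. URE mice lack the upstream regulatory element of Spi1, the gene of the myeloid transcription factor PU.1, and WT mice carry it. From each genotype, LSKs (Lin-Sca-1+c-Kit+, stem cells and early multipotent progenitors) and GMPs (lineage-negative c-Kit+ cells without Sca-1 that stain for the Fc receptors Cd16/32, granulocyte-monocyte progenitors) were sorted from 4 mice. This gave 16 libraries in 4 groups. The lineage stain held no antibody to Itgam protein (Cd11b), so the gates did not select on any of the 10 genes.

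Integrins are surface receptors made of an alpha and a beta subunit, and a subunit reaches the surface only in such a pair. The beta-2 family pairs Itgb2 with Itgal (LFA-1), Itgam (Mac-1) or Itgax and is found on leukocytes, where it binds intercellular adhesion molecules, complement fragments and other ligands. Among the same genes, the beta-1 and beta-7 families pair Itgb1 with Itga4, Itga5 or Itga6 and Itgb7 with Itga4. They bind Vcam1, fibronectin, laminins and, for Itga4 with Itgb7, the mucosal addressin, and stem cells use them to lodge in the marrow.

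Total counts per library ranged from 20028302 to 29128858. Levels are given as CPM, counts divided by each library's total in units of 1e6 and scaled to library size by edgeR's TMM method. Spi1 was lower in every URE library than in every WT library of the same population, with mean CPM of 3.05 ± 1.41 (SD, n = 4) against 125 ± 40.0 in LSKs and 20.8 ± 5.59 against 139 ± 38.1 in GMPs. Same-numbered libraries of different groups deviated together. Libraries 1 and 4 of all groups stood apart from libraries 2 and 3. Replicate 1 carried Y-linked transcripts in all 4 groups and replicate 4 in none, while replicates 2 and 3 carried them in WT mice only, so that sex and genotype cannot be told apart in replicates 2 and 3. Ly6a (Sca-1) separated LSKs, with group means of 62.1 and 92.4 CPM, from GMPs at 1.32 and 2.25 CPM, and Mpo was higher in every GMP library than in every LSK library. Cd3e had no counts in 3 of the 4 groups, but not every T and NK cell marker was so low. Nkg7 had means of 177.6 and 276.5 CPM in WT and URE LSKs and 803.5 and 1671 CPM in WT and URE GMPs. Cd4 had a mean of 5.6 CPM in WT LSKs.

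The 10 genes lie on 6 chromosomes in the GENCODE M21 annotation of GRCm38. Itgal (chr7:127296260-127335138), Itgam (chr7:128062640-128118491) and Itgax (chr7:128129547-128150657) share the plus strand of chromosome 7, with 727501 bases between Itgal and Itgam and 11055 bases between Itgam and Itgax. Itgb2 is at chr10:77530252-77565708, Itgb2l at chr16:96422288-96443619 on the minus strand, Itga6 at chr2:71745616-71858416 and Itga4 at chr2:79255426-79333123. Itga5 (chr15:103344286-103366763) and Itgb7 (chr15:102215995-102231944) are on the minus strand of chromosome 15, and Itgb1 is at chr8:128685654-128733200. A read-through model on the same strand, Gm49368, holds 3450 exonic bases of Itgam and 67.2% of its 31-base words, so reads could be divided between both. The table gave Gm49368 between 0 and 15 counts in any library. Itgax shares 10.7% of its 31-base words with its neighbour Itgad, and Itga4 shares 1124 exonic bases with Cerkl on the opposite strand, which unstranded libraries cannot separate. Itgb2l, a neutrophil relative of Itgb2, shares no 31-base word with Itgb2.

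RefSeq promoters (GRCm38.p6) were on hand for 7 of the 10 genes, namely Itgam, Itgax, Itgb2l, Itga4, Itga5, Itgb1 and Itgb7. In the 250 bases before the start of the gene, the PU.1 box GAGGAA, read on both strands, occurred in 23.3% of 32817 promoters, and 3.54% held 2 or more. Itgam held 2 boxes, 84 and 15 bases before the start. Itgb2l also held 2, 55 and 33 bases before the start, Itga5 and Itgb1 held 1 each, and Itgax, Itga4 and Itgb7 held none. The shorter ETS core GGAA, which is part of the PU.1 box, was in 93.4% of promoters and in all 7 of these. Itgam and Itgb7 are shown because both were called in LSKs, and Itgb2l because it holds as many boxes as Itgam. Each is printed 5′ to 3′ on the strand of the gene. Capitals mark the PU.1 box in Itgam (chr7:128062390-128062639, plus strand) and Itgb2l (chr16:96443615-96443864, minus strand), and the ETS core in Itgb7 (chr15:102231936-102232185, minus strand).
Itgam: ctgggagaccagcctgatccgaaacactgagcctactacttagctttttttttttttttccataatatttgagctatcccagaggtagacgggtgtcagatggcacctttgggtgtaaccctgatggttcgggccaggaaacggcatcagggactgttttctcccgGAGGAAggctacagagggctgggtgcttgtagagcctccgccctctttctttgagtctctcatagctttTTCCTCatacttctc
Itgb2l: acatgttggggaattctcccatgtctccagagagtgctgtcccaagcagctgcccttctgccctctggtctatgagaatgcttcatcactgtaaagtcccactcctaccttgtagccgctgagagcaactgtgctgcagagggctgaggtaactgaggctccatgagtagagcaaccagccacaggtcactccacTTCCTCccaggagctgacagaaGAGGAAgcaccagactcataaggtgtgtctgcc
Itgb7: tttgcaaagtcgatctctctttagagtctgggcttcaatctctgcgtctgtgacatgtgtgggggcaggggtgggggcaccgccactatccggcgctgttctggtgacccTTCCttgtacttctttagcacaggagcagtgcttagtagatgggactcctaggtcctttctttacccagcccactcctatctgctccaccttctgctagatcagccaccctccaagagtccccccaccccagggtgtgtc

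**Figure D1:**
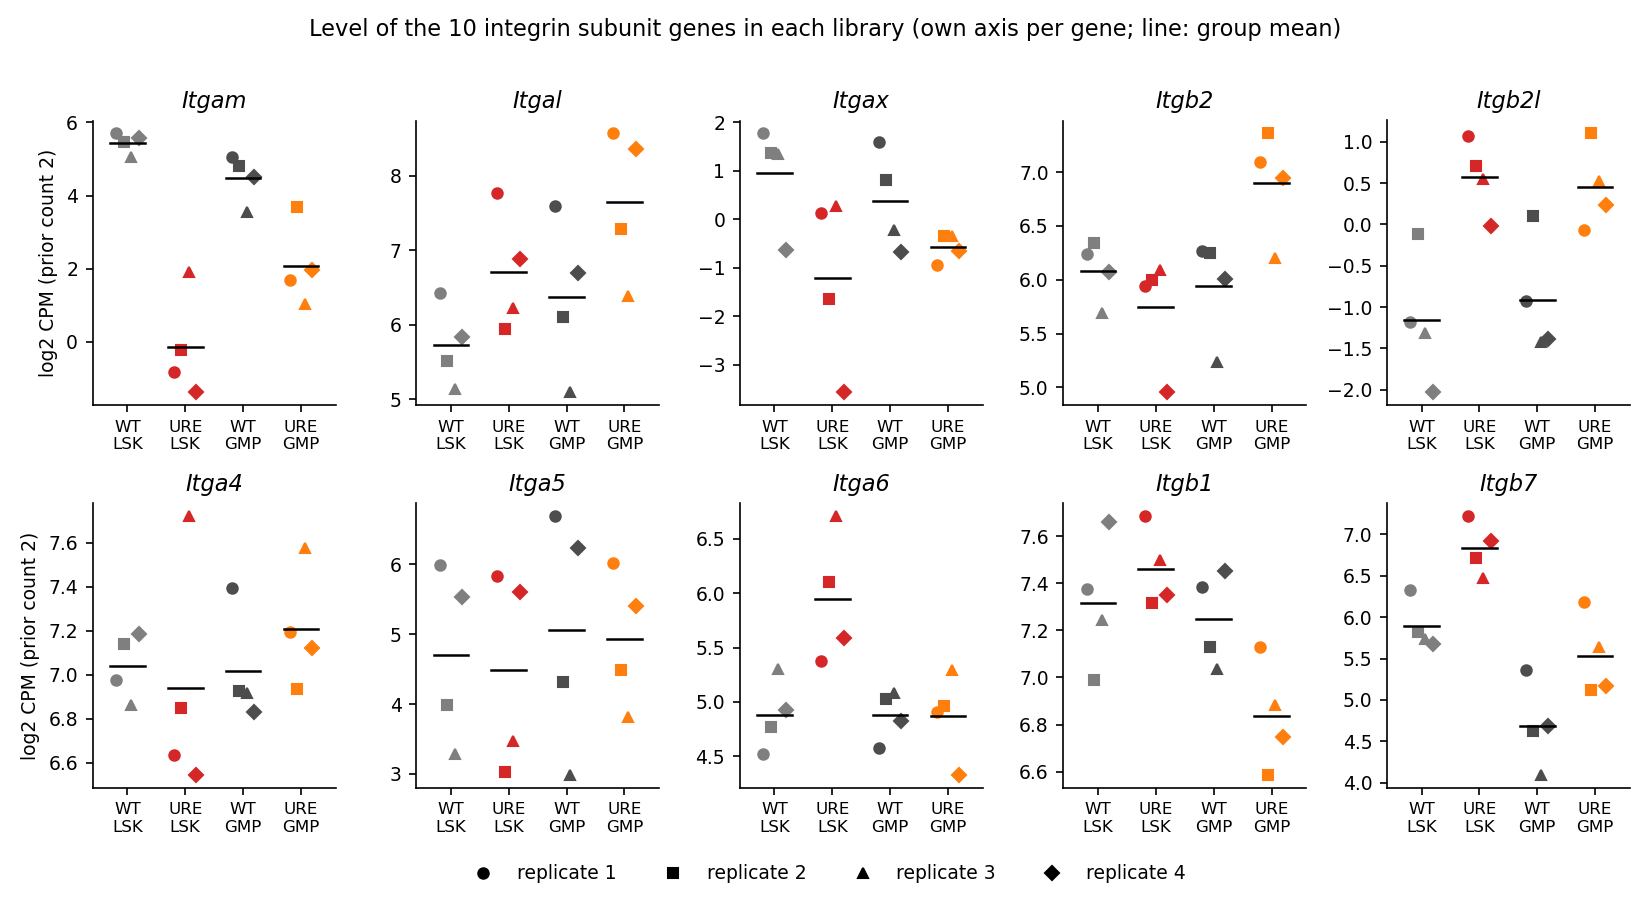
Level of each of the 10 genes in the 16 libraries, as log2 CPM with a prior count of 2. Each gene has its own axis, symbols give the replicate number and lines the group means. Itgam is high in WT LSKs and near the floor in URE LSKs, while Itgb7 is highest in URE LSKs.

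To compare genes with each other, CPM was divided by the length of the merged exons in kilobases. For Itga4 this length is 13978 bases against 9767 for the longest transcript, and for Itga6 9025 against 4310. The order of the genes can depend on this choice and was not repeated with the longest transcript. Per kilobase, Itgb1 was the highest of the 10 genes in WT LSKs at 39.6 ± 7.73 CPM per kb, followed by Itgb2 (22.5 ± 4.21) and Itgb7 (21.7 ± 4.93), which did not differ beyond their spread. Itga4 (9.45 ± 0.959), Itgam (8.77 ± 1.61), Itgal (8.51 ± 3.33) and Itga5 (6.84 ± 5.14) formed the middle and overlapped each other within their SD. Itgax and Itgb2l were at the bottom of all 4 groups except URE LSKs, where Itgam was the ninth of the 10 genes. In URE GMPs the beta-2 pair had the highest means, with Itgb2 at 40.8 ± 12.4 and Itgal at 36.1 ± 21.3 CPM per kb against 28.3 ± 4.58 for Itgb1. In replicate 3 of that group Itgb1 (28.9 CPM per kb) was above Itgb2 (24.2) and Itgal (12.7).

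Whether the loss of the URE changed integrin RNA was asked in each population. In URE LSKs Itgam was nearly absent and Itgb7 was higher. Of the 10 genes, all of which passed the filter on low counts, 2 were called between URE and WT LSKs: Itgam fell and Itgb7 rose. A gene was called at a Benjamini-Hochberg adjusted p under 0.05 in edgeR's quasi-likelihood test and a fold change above 1.5. Among all 15154 genes tested, 6.14% were called, 2.38% higher and 3.76% lower in URE LSKs. The median log2 fold change of the 10 genes was 0.02, against 0.00093 over all genes. In 4 of the 10 genes (Itgam, Itgb2l, Itga6 and Itgb7) the libraries of the genotypes did not overlap, which held for 12.6% of all genes tested.

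In GMPs none of the 10 genes was called by edgeR, against 8.3% of 13829 genes tested. At an unadjusted p under 0.05 there were 6, without a share over all genes, so this count cannot show an excess. DESeq2 called 2 (Itgam and Itgb2), against 7.22% of 27699 genes fitted. EdgeR with the replicate number as a block called 5, against 16.3% of all genes. Under the block Itgam fell by 2.39 on the log2 scale (adjusted p = 0.00365), and Itgal (1.30, adjusted p = 0.000894), Itgb2 (0.98, adjusted p = 0.00173), Itgb2l (adjusted p = 0.036) and Itgb7 (0.86, adjusted p = 0.0224) were higher in URE GMPs. In LSKs the block called 4 genes, adding Itgal (0.94, adjusted p = 0.0091) and Itga6 (1.03, adjusted p = 0.00901) to Itgam and Itgb7, against 9.46% of all genes. DESeq2 called 4 in LSKs, Itgam, Itgb7, Itga6 and Itgb2l, against 5.62% of 29033 genes fitted. No gene had genotypes without overlap in GMPs, against 14.9% of all genes.

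**Figure D2:**
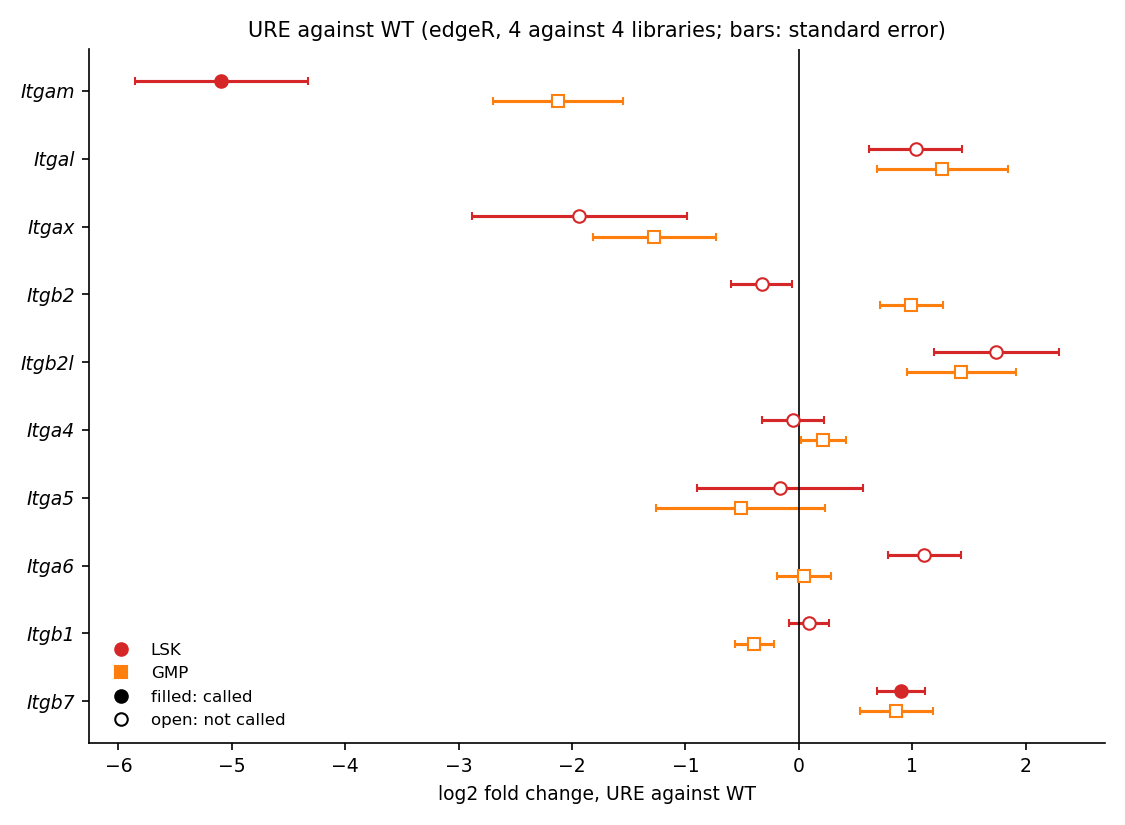
Log2 fold change of URE against WT for the 10 genes in LSKs (circles) and GMPs (squares), from edgeR without the replicate block, with standard errors. Filled symbols were called: Itgam at -5.09 and Itgb7 at 0.90, both in LSKs.

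Itgam encodes the alpha subunit of Mac-1, the complement receptor of neutrophils and macrophages. In WT LSKs its level was 51.8, 43.9, 32.9 and 47.5 CPM in replicates 1 to 4. In URE LSKs it was 0.481, 0.77, 3.67 and 0.3 CPM, from 12, 23, 88 and 7 counts. Every URE LSK library was below every WT library, and the WT mean was 33.8 times the URE mean. The log2 fold change was -5.09 (SE 0.76, adjusted p = 0.0041 in edgeR), and Itgam was called in all 20 alternative settings, with log2 fold changes from -7.03 (replicates 1 and 4 alone) to -4.13 (replicates 2 and 3 alone) and adjusted p from 3.93e-13 to 0.0165. Without URE LSK replicate 3 the log2 fold change was -6.42. With the counts of Gm49368 added, the log2 fold change was -4.96.

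In WT GMPs Itgam was at 32.9, 28.1, 11.7 and 22.7 CPM, and in URE GMPs at 3.13, 12.7, 1.96 and 3.78 CPM. Every URE library was below its same-numbered WT library, but replicate 2 of URE GMPs was above replicate 3 of WT GMPs. The log2 fold change was -2.12 (SE 0.58, adjusted p = 0.0542, range over 20 alternatives 0.00159 to 0.569). Without URE GMP replicate 2, edgeR called it. The same replicate had a summed level of 8 monocyte markers of 1815 CPM, against 399.1 to 760.3 in the other 3 URE GMP libraries and 1641 to 2272 in WT GMPs. Of those markers, 6 of 8 tested fell in URE GMPs and 4 of 7 in LSKs, where the sum was 150.2 to 201.4 CPM in WT and 18.5 to 42.4 CPM in URE mice. Ly6c2 alone gave 1147 CPM of that sum and was not called, with a higher mean in URE than in WT GMPs (613 and 308 CPM). Without Ly6c2, a sum added after the values were seen, it was 668 CPM in replicate 2, 75.9 to 107.6 in the other URE GMP libraries and 1362 to 2023 in WT GMPs. No monocyte marker was at 0 in any group. The monocyte sum and Itgam did not always go together. The median sum was 164.4 CPM in WT LSKs and 1994 CPM in WT GMPs, where Itgam was lower. In URE LSKs replicate 3 had the highest Itgam level, but its sum was 37.2 CPM against 42.4 in replicate 2. The part of these markers in the Itgam values was not tested. In bulk samples, fewer cells of a type and less RNA per cell cannot be told apart.

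Itgal, the alpha subunit of LFA-1, which binds intercellular adhesion molecules, moved the other way. It was at 85.8, 45.6, 35.1 and 56.9 CPM in WT LSKs and at 217, 61.6, 74.8 and 118 CPM in URE LSKs. In GMPs it was at 194, 68.6, 34.1 and 103 CPM in WT and 379.9, 156, 83.7 and 328 CPM in URE mice. Every URE library was above its same-numbered WT library in both populations, while the groups overlapped because replicates 1 and 4 were higher than replicates 2 and 3 in all 4 groups. Without the block the log2 fold change was 1.03 (SE 0.41, adjusted p = 0.248) in LSKs and 1.26 (SE 0.58, adjusted p = 0.26) in GMPs in edgeR. Within replicates 1 and 4 alone it was 1.17 in LSKs and 1.25 in GMPs, where it was called (adjusted p = 0.0406), and within replicates 2 and 3 alone it was 0.74 in LSKs and 1.27 in GMPs.

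**Figure D3:**
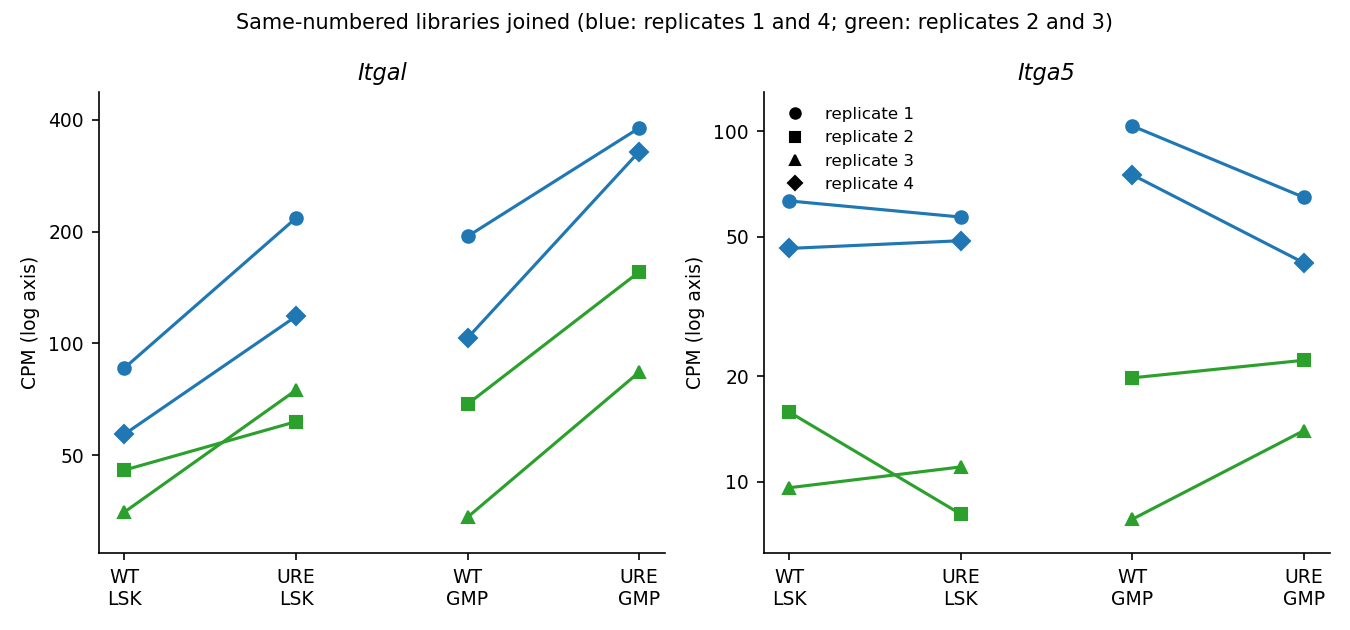
CPM of Itgal and Itga5 on a log axis, with same-numbered WT and URE libraries joined. Itgal rises from WT to URE in all 4 pairs of both populations, while Itga5 is split by replicate set, at 42.1 to 103 CPM in replicates 1 and 4 and 7.84 to 22.2 CPM in replicates 2 and 3.

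Itgax, the alpha subunit known as Cd11c on dendritic cells, was near the detection limit. Its counts ranged from 14 to 102 in WT LSKs and from 0 to 27 in URE LSKs, with means of 2.21 ± 1.17 and 0.59 ± 0.557 CPM. In GMPs the means were 1.48 ± 1.09 CPM in WT and 0.597 ± 0.131 CPM in URE mice. The genotypes overlapped in both populations, and the log2 fold changes of -1.94 (SE 0.95, adjusted p = 0.392) and -1.27 (SE 0.54, adjusted p = 0.22) were not called by edgeR.

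The make-up of the 3 beta-2 alpha subunits among the 10 genes differed between WT and URE libraries. Itgad, which is not among the 10 genes, was left out of the sum. Its means were 0.516 and 0.269 CPM per kb in WT and URE LSKs and 0.604 and 0.614 in WT and URE GMPs. Itgam was at 0.26 CPM per kb in URE LSKs. Per kilobase, Itgam made up 50.4 ± 5.10% of the sum of Itgam, Itgal and Itgax in WT LSKs, 26.1 ± 7.44% in WT GMPs, 3.77 ± 3.96% in URE GMPs and 2.03 ± 2.66% in URE LSKs (SD, n = 4). Itgal made up 46.9 ± 5.36% in WT LSKs, 72.3 ± 7.91% in WT GMPs, 95.7 ± 4.10% in URE GMPs and 97.2 ± 3.42% in URE LSKs. The highest Itgam share in a URE library, 9.58%, was below the lowest in a WT library, 17.8%. These shares were chosen after the values were seen and carry no test.

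**Figure D4:**
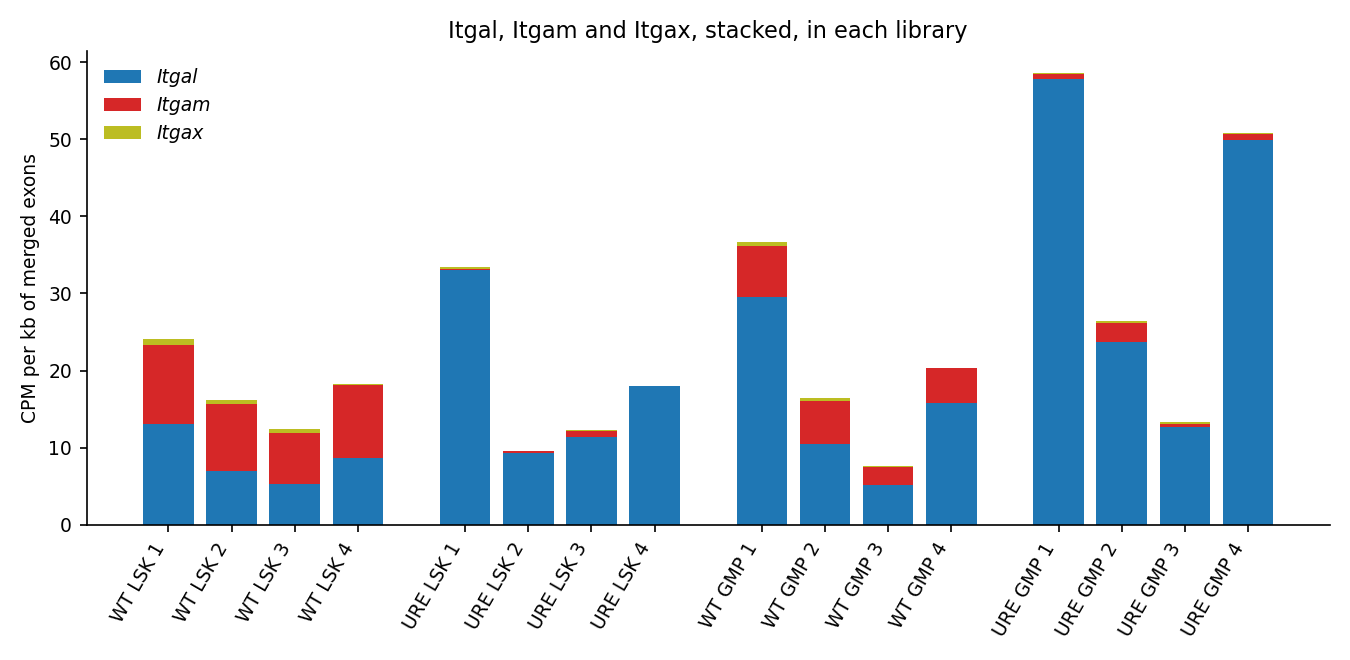
CPM per kb of merged exons of Itgal, Itgam and Itgax, stacked, in each of the 16 libraries. Itgam is a clear part of every WT column and a thin band in every URE column.

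Itgb2 is the beta subunit that all 3 of these alpha subunits need. It was at 75.2, 81.1, 51.5 and 67.4 CPM in WT LSKs and at 61.3, 63.8, 68.2 and 30.9 CPM in URE LSKs, with overlap (log2 fold change -0.33, SE 0.27, adjusted p = 0.72 in edgeR). In GMPs it was at 77, 75.8, 37.6 and 64.3 CPM in WT and 137, 164, 73.8 and 123 CPM in URE mice. Each URE GMP library was above its WT partner, and only URE replicate 3 lay within the WT range. The log2 fold change was 0.99 (SE 0.28, adjusted p = 0.0622). Itgb2 was called without URE GMP replicate 3 and in 5 of 20 alternatives in all.

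Itgb2l was scarce, with 4 to 25 counts in WT LSKs and 21 to 50 in URE LSKs. The means were 0.419 ± 0.293 and 1.46 ± 0.456 CPM, without overlap, and 0.504 ± 0.329 and 1.34 ± 0.516 CPM in WT and URE GMPs, with overlap. All 4 pairs were higher in URE mice in both populations. The log2 fold changes were 1.74 (SE 0.55, adjusted p = 0.12) and 1.43 (SE 0.48, adjusted p = 0.116) in edgeR, and DESeq2 called the LSK difference. The summed level of 10 late neutrophil markers, such as S100a8 and Ngp, was 38.3 to 183.6 CPM in WT LSKs, 183.6 to 368 in URE LSKs, 67.5 to 172 in WT GMPs and 255 to 1012 in URE GMPs. Not every marker followed the sum: Mmp8 fell in URE GMPs (-3.04, adjusted p = 0.013 in edgeR), and Cxcr2 had lower means in URE mice, 3.15 and 1.39 CPM in LSKs and 16.9 and 13.7 CPM in GMPs, without a call. None of these markers was at 0 in any group, and their part in the values of Itgal, Itgb2 and Itgb2l was not tested.

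Itgb7 belongs to the beta-7 family. This beta subunit pairs with Itga4 in the gut-homing receptor. It was at 80.3, 56.3, 53.0 and 50.9 CPM in WT LSKs and 149, 104.8, 89.0 and 121 CPM in URE LSKs, with no overlap. The log2 fold change was 0.90 (SE 0.21, adjusted p = 0.0362 in edgeR), 0.91 with the block. It was no longer called without URE LSK replicate 1 or 4 or WT LSK replicate 2, 3 or 4, with log2 fold changes of 0.77 to 0.89 and adjusted p of 0.0758 to 0.121. In GMPs it was at 40.9, 24.6, 17.0 and 25.6 CPM in WT and 72.6, 34.8, 49.9 and 35.8 CPM in URE mice, higher in all 4 pairs but overlapping (0.86, SE 0.32, adjusted p = 0.159).

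Itga6, a laminin receptor subunit found on stem cells, was at 22.8, 27.2, 39.3 and 30.3 CPM in WT LSKs and 41.5, 68.9, 104.7 and 48.1 CPM in URE LSKs. The genotypes did not overlap in LSKs, and the log2 fold change was 1.11 (SE 0.33, adjusted p = 0.0912 in edgeR). Itga6 was called by DESeq2 (1.14, adjusted p = 0.0186), by edgeR with all 16 libraries in the fit (1.14, adjusted p = 0.0234) and with the block. EdgeR did not call it with the covariate for Y-linked RNA (0.87, adjusted p = 0.497). It was also not called in replicates 1 and 4 alone (0.695, adjusted p = 0.144) or 2 and 3 alone (1.37, adjusted p = 0.0683). In GMPs the means were 29.6 ± 4.51 in WT and 30.0 ± 7.84 CPM in URE mice, and 2 of 4 pairs were higher in URE mice. In URE LSKs, replicate 3, the highest for Itga6, also had the highest sum of 7 megakaryocyte markers, 766 CPM. The sum was 61.7 to 161 CPM in the other URE LSK libraries and 67.3 to 89.3 in WT LSKs. Replicate 2, the next highest for Itga6 in URE LSKs, had the lowest sum, 61.7 CPM, below every WT LSK library. The part of these markers in the Itga6 values was not tested.

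Itgb1, the common beta-1 subunit, had means of 162 ± 31.5 and 177 ± 21.4 CPM in WT and URE LSKs, and 153 ± 20.9 and 115 ± 18.7 CPM in WT and URE GMPs. In GMPs it was lower in URE mice in 4 of 4 pairs, and the exact two-sided permutation p was 0.0571. Itga4, the alpha subunit of VLA-4 that binds Vcam1, had group means from 129.6 to 149.6 CPM and overlapped in every comparison. Itga5, the fibronectin receptor subunit, had means from 31.2 to 51.5 CPM and a wide spread. Its libraries 1 and 4 averaged 2.95 to 6.45 times libraries 2 and 3 of the same group, more than any difference between groups. The fitted log2 fold changes of Itgb1, Itga4 and Itga5 between genotypes lay between -0.51 and 0.22, and none was called in any setting.

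For the question whether the effect of genotype depended on the population, the interaction of both factors was fitted. None of the 10 genes was called by edgeR, against 1.22% of 15935 genes, at an adjusted p under 0.05. At an unadjusted p under 0.05 there were 3, again without a share over all genes. These were Itgam (2.97 on the log2 scale, SE 0.96, adjusted p = 0.17), Itgb2 (1.30, SE 0.42, adjusted p = 0.164) and Itga6 (-1.09, SE 0.41, adjusted p = 0.257). With the replicate block 2 were called, Itgb2 (1.26, adjusted p = 0.0436) and Itga6 (-1.04, adjusted p = 0.0281), against 6.57% of all genes, while Itgam stood at 2.86 (adjusted p = 0.0924). DESeq2 called Itgam only, against 2.17% of 31079 genes fitted. Without URE LSK replicate 3, which held the highest Itgam count of its group, edgeR called Itgam at 4.30 (adjusted p = 0.0157).

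From LSKs to GMPs, Itgb7 fell in both genotypes. In WT mice it was the only one of the 9 genes that passed the filter to be called, with a log2 fold change of -1.15 (SE 0.28, adjusted p = 0.0134 in edgeR). Among all 14767 genes, 27.3% were called, 11.5% higher and 15.8% lower in GMPs. In 2 of the 10 integrins, Itgb7 and Itgam, the libraries did not overlap, against 31.3% of all genes. Itgam was lower in every WT GMP library than in every WT LSK library (-0.89, SE 0.30, adjusted p = 0.0544). The block called 3 of 9 genes, a smaller share than the 40.9% of all genes it called: Itgb7, Itgam (-0.95, adjusted p = 0.000869) and Itgal (0.66, adjusted p = 0.0137). Without WT GMP replicate 1 or WT LSK replicate 3, Itgam was called as well.

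In URE mice 4 of 10 genes were called between GMPs and LSKs, Itgb2 higher and Itga6, Itgb1 and Itgb7 lower in GMPs. Among all 14395 genes 21.8% were called, 9.2% higher and 12.6% lower. The log2 fold changes were 1.15 for Itgb2 (SE 0.30, adjusted p = 0.0236), -1.13 for Itga6 (SE 0.33, adjusted p = 0.0381), -0.61 for Itgb1 (SE 0.17, adjusted p = 0.0274) and -1.25 for Itgb7 (SE 0.27, adjusted p = 0.00937) in edgeR. The libraries of these 4 genes did not overlap, against 26.6% of all genes. Itgam went from 0.3 to 3.67 CPM in URE LSKs to 1.96 to 12.7 CPM in URE GMPs, with overlap (2.03, SE 0.88, adjusted p = 0.136). It was called at 3.43 without URE LSK replicate 3. Itgal was higher in GMPs in all 4 pairs, with overlap (1.01, SE 0.52, adjusted p = 0.202). With the block 5 genes were called, the 4 above and Itgal (0.96, adjusted p = 0.0103), against 31.9% of all genes. Itgb7 was called whichever library was left out. The number of genes called was 2 without URE GMP replicate 1 and 1 without URE GMP replicate 2 or 4.

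**Figure D5:**
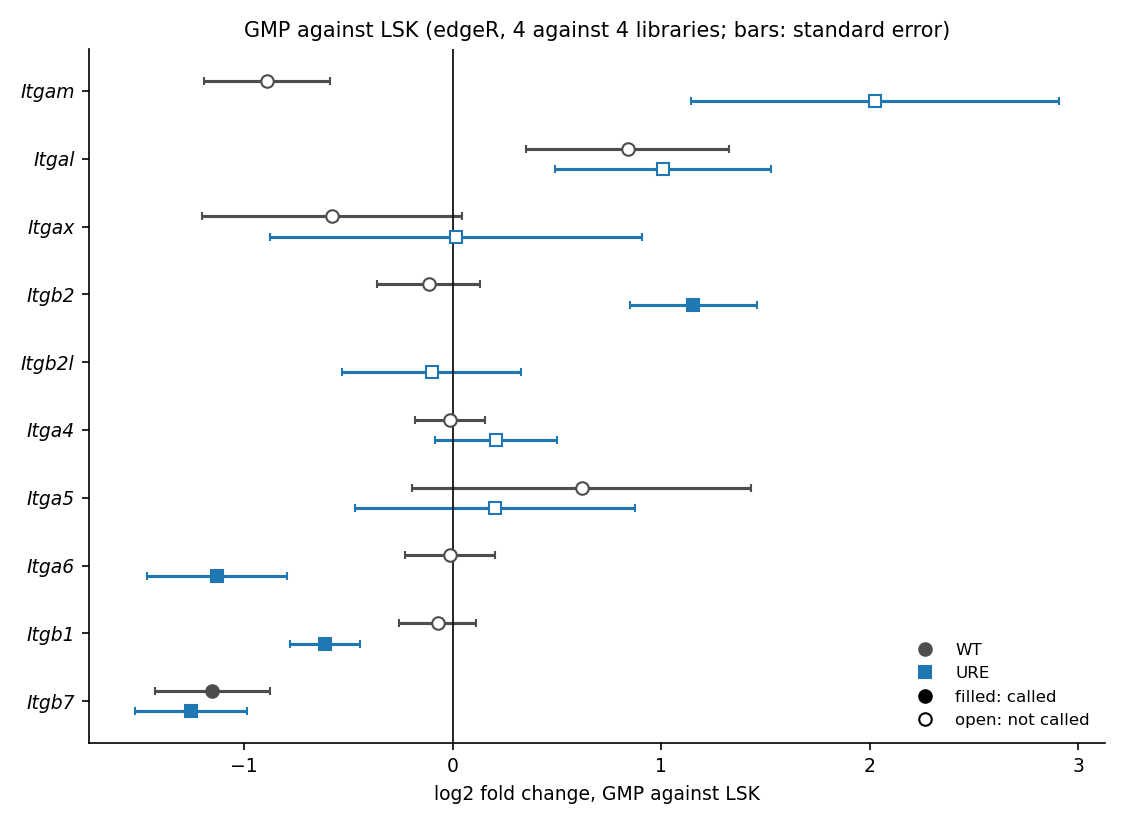
Log2 fold change of GMPs against LSKs for the 10 genes in WT (circles) and URE mice (squares), from edgeR without the replicate block, with standard errors. Filled symbols were called, and Itgb2l has no WT value because it did not pass the filter there. Itgb7 lies at -1.15 and -1.25, and Itgam at -0.89 and 2.03.

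The order of the 4 groups differed between genes. For Itgam it was WT LSK (44.0 ± 8.08 CPM), WT GMP (23.8 ± 9.13), URE GMP (5.39 ± 4.93) and URE LSK (1.30 ± 1.59), and of the neighbours only the WT groups did not overlap. For Itgb7 it was URE LSK (116 ± 25.6), WT LSK (60.1 ± 13.7), URE GMP (48.3 ± 17.6) and WT GMP (27.0 ± 9.99), and of the neighbours only the LSK groups did not overlap. For Itgb2, URE GMPs (124.5 ± 37.8) stood above WT LSKs (68.8 ± 12.9), WT GMPs (63.7 ± 18.3) and URE LSKs (56.1 ± 17.0), with overlap between all neighbours. For Itga6, URE LSKs (65.8 ± 28.5) did not overlap URE GMPs, and the other 3 groups had means of 29.6 to 30.0 CPM.

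The level of alpha subunits relative to their beta subunits was compared per kilobase. The sum of Itgam, Itgal and Itgax was 0.787 ± 0.154 of Itgb2 in WT LSKs, 1.11 ± 0.706 in URE LSKs, 0.926 ± 0.385 in WT GMPs and 0.901 ± 0.441 in URE GMPs, with overlap in all 4 comparisons (exact two-sided permutation p of 0.6 or higher). In LSKs the replicate sets differed in direction. URE was above WT in replicates 1 (1.664 against 0.976) and 4 (1.782 against 0.826). It was below WT in replicates 2 (0.458 against 0.61) and 3 (0.553 against 0.736). The sum of Itga4, Itga5 and Itga6 was 0.317 ± 0.0404 of Itgb1 plus Itgb7 in WT LSKs and 0.472 ± 0.129 in WT GMPs, 0.55 higher on the log2 scale without overlap. In URE mice it was 0.273 ± 0.0727 in LSKs and 0.47 ± 0.0397 in GMPs, 0.81 higher without overlap. Both had an exact permutation p of 0.0286, the smallest that 4 against 4 libraries can give. The ratio is not separate from the fall of Itgb7, which is part of its denominator. Itgb7 had means of 21.7 and 9.76 CPM per kb in WT LSKs and GMPs and 41.85 and 17.4 in URE mice. In WT GMPs the ratio was 0.640 and 0.508 in replicates 1 and 4. It was 0.377 and 0.364 in replicates 2 and 3, near the highest WT LSK value of 0.350. With the longest transcript as length, or no length at all, the URE groups overlapped (exact permutation p = 0.0571), while the WT difference kept its p.

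Of 17 genes of other integrin subunits, 10 passed the filter in LSKs and 2 were called, both higher in URE mice, against 6.14% of all genes. The median log2 fold change was 0.82. Itga2b, the platelet integrin subunit, rose from 36.8 ± 9.14 to 138 ± 73.6 CPM (1.88, SE 0.41, adjusted p = 0.026 in edgeR), and Itga2, a collagen receptor subunit, from 7.39 ± 2.11 to 26.8 ± 11.2 CPM (1.82, SE 0.36, adjusted p = 0.0163). Itga2b is also on the megakaryocyte list given above. In GMPs edgeR called none of 9 tested, against 8.3% of all genes, and 1 had an unadjusted p under 0.05. In the interaction it called none of 10, against 1.22% of all genes, and 4 of the 10 had an unadjusted p under 0.05. Neither unadjusted count has a share over all genes beside it. From LSKs to GMPs in WT mice 6 of 10 were called, 2 higher and 4 lower in GMPs, against 27.3% of all genes. The median log2 fold change was -0.51. Among the 6 was Itga1, a collagen receptor subunit, which rose from 0.491 ± 0.328 to 21.5 ± 7.73 CPM (5.41, SE 0.55, adjusted p = 0.000213). In URE mice 2 of 9 were called, against 21.8% of all genes, and Itga2 fell by 3.84 on the log2 scale (SE 0.86, adjusted p = 0.0119).

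Of 28 ligands and counter-receptors of integrins, 17 were tested in LSKs and 1 was called, against 6.14% of all genes. The called ligand was Spp1, the gene of osteopontin, a ligand of Itga4 and other integrins, which rose from 4.99 ± 2.12 to 22.1 ± 7.51 CPM (2.12, SE 0.38, adjusted p = 0.0102 in edgeR). In GMPs 4 of 15 were called, 2 in each direction, against 8.3% of all genes. Spp1 rose from 3.37 ± 0.935 to 19.4 ± 2.67 CPM (2.54, adjusted p = 0.000803), and Thbs1, the gene of thrombospondin, from 1.02 ± 0.343 to 44.4 ± 26.5 CPM (5.45, adjusted p = 0.000824). Icam1, the main ligand of LFA-1 and Mac-1, fell from 19.0 ± 3.89 to 5.79 ± 1.48 CPM (-1.69, SE 0.26, adjusted p = 0.00434). From LSKs to GMPs 6 of 17 were called in WT and 7 of 16 in URE mice, against 27.3% and 21.8% of all genes. Icam1 and F11r, a junction molecule that binds LFA-1, fell in both genotypes, F11r from 72.2 ± 14.7 to 5.71 ± 2.52 CPM in WT mice (-3.66, adjusted p = 0.000198) and from 50.3 ± 5.23 to 2.47 ± 1.61 CPM in URE mice (-4.33, adjusted p = 0.000512). Vcam1, the ligand of VLA-4, rose from 20.9 ± 4.99 to 147 ± 88.5 CPM in URE mice (2.82, adjusted p = 0.00144). The interaction was called for 1 of 19, against 1.22% of all genes: Jam3 (2.55, SE 0.58, adjusted p = 0.0414), a junction molecule that binds Mac-1.

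Of 51 genes of integrin activation and the adhesion machinery, 45 were tested in LSKs and 7 were called, 2 higher and 5 lower in URE mice. The share called was 15.6%, against 6.14% of all genes. The median log2 fold change was 0.0048. Skap1, an adaptor of integrin activation in T cells, rose from 0.786 ± 0.361 to 22.3 ± 12.7 CPM (4.77, SE 0.55, adjusted p = 0.000983 in edgeR), and Nedd9, a docking protein at focal adhesions, from 39.1 ± 5.06 to 87.9 ± 15.8 CPM (1.13, adjusted p = 0.00695). Skap2, the related adaptor of myeloid cells, fell from 284 ± 19.2 to 184 ± 25.5 CPM in LSKs (-0.67, adjusted p = 0.0271) and from 247 ± 21.9 to 122 ± 13.2 CPM in GMPs (adjusted p = 0.00313). Tyrobp and Fcer1g, adaptors that carry signals of beta-2 integrins and Fc receptors, fell in LSKs, with log2 fold changes of -3.04 (adjusted p = 0.000983) and -1.63 (adjusted p = 0.0239). In GMPs 5 of 44 were called, 2 higher and 3 lower in URE mice, against 8.3% of all genes. From LSKs to GMPs 9 of 45 were called in WT and 9 of 46 in URE mice, against 27.3% and 21.8% of all genes. Both shares of the list were below those of all genes. In the interaction edgeR called none of 47, against 1.22% of all genes. Of these 47, 4 had an unadjusted p under 0.05, a count without a share over all genes beside it.

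Of 19 selectins and other adhesion receptors, 3 of 15 tested were called in LSKs and 7 of 15 in GMPs. Over all genes the shares called were 6.14% and 8.3%. Cd177, a neutrophil surface protein that associates with Mac-1, rose from 2.59 ± 1.59 to 13.8 ± 4.72 CPM in LSKs (2.37, SE 0.48, adjusted p = 0.0186 in edgeR) and from 3.02 ± 1.68 to 19.2 ± 11.7 CPM in GMPs (2.69, SE 0.50, adjusted p = 0.01). Cd24a, a ligand of P-selectin, fell from 90.6 ± 13.8 to 4.04 ± 0.687 CPM in LSKs (-4.52, SE 0.23, adjusted p = 5.19e-05) and from 78.6 ± 9.84 to 13 ± 7.29 CPM in GMPs (-2.58, adjusted p = 0.00356). Pecam1 rose in GMPs from 155 ± 21 to 301 ± 68.8 CPM (0.98, adjusted p = 0.0126). From LSKs to GMPs 5 of 15 were called in WT and 8 of 14 in URE mice, against 27.3% and 21.8% of all genes. The interaction was called for 3 of 17, against 1.22% of all genes: Pecam1 (1.56, adjusted p = 0.00771), Cd24a (1.93, adjusted p = 0.0463) and Selplg, the ligand of selectins (-0.83, adjusted p = 0.0445).

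Of the members, 7 had a mean of at least 3 log2 CPM over the 16 libraries, and for each the 2 genes with the most similar log2 CPM were sought among 9072 genes. Pearson's r over 16 libraries was 0.986 between Itga5 and Rrp12, 0.969 between Itgal and Tbc1d2b, 0.957 between Itgb7 and Map7, 0.913 between Itgb1 and Asxl1, 0.9 between Itgb2 and Golga5, 0.892 between Itga6 and Pitpnc1 and 0.762 between Itga4 and Sntb1. The next were Shkbp1, Os9, Dok2, Ppfibp1, Sqor, Acadm and Cavin2, in the same order. Among the members, the highest r were 0.72 between Itgam and Itgax and 0.693 between Itgal and Itga5. The libraries share replicate sets, genotype and population, so these values are descriptions and carry no p.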

How the data were processed

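The authors quantified paired-end reads of unstranded low-input libraries, made from up to 10 ng of RNA, with salmon against GRCm38 (also named in the submitters' processing notes), summed transcripts per gene with tximport and deposited estimated counts of 16 libraries as whole numbers without normalization. The annotation release is not given in the sources used here. Libraries carry no molecular identifiers. The number of mice per group, 4, gives the replicates, and statements on depth cover counting error only. Pairs of replicates differed by a chi-square of at least 29.6 per degree of freedom.

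Here, edgeR 4.0.16 (limma 3.58.1, R 4.3.3) with TMM factors, filterByExpr and the quasi-likelihood test was fitted across all genes in 5 comparisons, each on its own groups, and p-values were adjusted by Benjamini-Hochberg. Calls required an adjusted p below 0.05 together with a change of more than 1.5 times, except for the interaction, where the adjusted p sufficed. The procedure was run on simulated counts drawn independently for each library. These held no replicate sets, pairing or sex difference, so they cannot speak to calls that depend on such features. Standard errors come from the log2 fold change and the F value. Exact permutation tests were two-sided, on log2 CPM with a prior count of 2 or log2 ratios. Gene models and lengths are those of GENCODE M21, which held 54094 of 54347 identifiers and lacked 253. Promoters are those of RefSeq. The members and gene lists were chosen with earlier results of these data known. Genes named are the members, Spi1, the called genes of the lists (at most 4 per direction and comparison, from 3 log2 CPM), list genes whose interaction was called, defining markers and the 2 genes most similar to each member.

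Replicate numbers come from the labels. Deviations from group means correlated between same-numbered libraries in all 16 pairs (r from 0.282 to 0.766, mean 0.504). Differently numbered libraries of one set (1 with 4, 2 with 3) also correlated (r from 0.0606 to 0.477, mean 0.28). URE replicate 4 had a higher r with WT replicate 1 than with WT replicate 4, in LSKs (0.434 against 0.305) and GMPs (0.477 against 0.282). Pairing by number was thus not fully separated from the split into sets. The numbers were taken to pair the samples, and a fit with the replicate number as a block was made beside each comparison. Other alternatives were DESeq2 1.42.0, RLE and upper-quartile factors, other filters, all 16 libraries in a fit, replicates 1 and 4 or 2 and 3 alone, a covariate for Y-linked RNA, no fold threshold and leaving out each library. Summing the counts of Itgam, Itgax and Itga4 with those of the genes that share their sequence was added after the data had been seen.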

Additional observations from a re-analysis of the deposited data

Results flagged for a closer look

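Among the 40 groups of 4 libraries formed by the 10 integrin genes, 3 held a library far from the other 3, where chance alone gives about 1 in 20 groups. Itgam in URE LSK replicate 3 was at 3.67 CPM (88 counts), against 0.3 to 0.77 CPM in the other 3 libraries. Itgam in URE GMP replicate 2 was at 12.7 CPM (253 counts), against 1.96 to 3.78 CPM. Itga4 in WT GMP replicate 1 was at 168 CPM (3826 counts), against 113.6 to 121 CPM. The gap to the nearest library took 0.86, 0.83 and 0.86 of the range of the group, in that order.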

How the results depend on the processing

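The calls of several integrins depended on the design. With the replicate block, which pairs same-numbered libraries, the number of members called was 4 in LSKs (2 without it), 5 in GMPs (0), 3 from LSKs to GMPs in WT mice (1), 5 in URE mice (4) and 2 in the interaction (0). Over all genes the calls rose as well, from 930 to 1433, 1148 to 2260, 4037 to 6041, 3133 to 4591 and 194 to 1047. DESeq2 called 4, 2, 1, 4 and 1 in the same order, against 5.62%, 7.22%, 18.1%, 15.0% and 2.17% of all genes fitted. With the covariate for Y-linked RNA, edgeR called 2, 0, 1, 4 and 0, against 3.37%, 4.56%, 26.3%, 21.4% and 0.966% of all genes. Without a filter on low counts 1 was called in LSKs and 1 in GMPs, against 3.08% and 4.39% of all genes. With at least 1 CPM in 4 libraries 2 were called in WT mice from LSKs to GMPs, against 28.0%. Upper-quartile factors gave 1 in GMPs and 2 in WT mice, against 7.66% and 25.8%. With all 16 libraries in the fit 1 was called in GMPs, against 9.75%. That fit called 2 in LSKs, Itgam and Itga6 in place of Itgb7 (adjusted p = 0.0557), against 6.88% of all genes. Replicates 1 and 4 alone gave 1, 3, 0, 6 and 1 calls, against 6.42%, 8.82%, 20.1%, 28.7% and 1.09% of all genes. Replicates 2 and 3 alone gave 1, 0, 1, 0 and 0 calls, against 2.46%, 0.759%, 16.4%, 5.5% and 0.0123% of all genes. The cause was not tested. Without each library in turn the counts ranged from 1 to 2 in LSKs, 0 to 1 in GMPs, 1 to 2 in WT mice, 1 to 4 in URE mice and 0 to 1 in the interaction. Of 1036 alternative log2 fold changes of members, 67 changed sign, none of them for a member called under any setting of its comparison, and 899 kept both sign and call. The other 38 gained and 32 lost the call. For the ratio of Itga4, Itga5 and Itga6 to Itgb1 and Itgb7, GMP against LSK in URE mice was 0.70 on the log2 scale with the longest transcript and 0.81 with no length. Without each library it ranged from 0.73 to 0.98, and from 0.39 to 0.66 in WT mice, where 4 against 3 libraries cannot give an exact permutation p under 0.0571 when the smaller tail is doubled, as here. Between genotypes in GMPs this ratio ranged from -0.085 to 0.19. The ratio of Itgam, Itgal and Itgax to Itgb2 ranged from -0.049 to 0.60 in LSKs, -0.32 to 0.15 in GMPs, -0.077 to 0.33 from LSKs to GMPs in WT and -0.53 to 0.12 in URE mice. Summing the counts of genes that share sequence, added after the data had been seen, changed no count of calls. Depth limited Itgax and Itgb2l, with at most 102 and 50 counts in a library.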
